A study of Ovis aries with 16 samples.

Results

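Water channels and the machinery of alveolar sodium transport were followed in lung RNA of newborn lambs, through 9 genes: the aquaporins AQP1, AQP3, AQP4 and AQP5, the sodium channel subunits SCNN1A, SCNN1B and SCNN1G, the sodium pump subunit ATP1B1 and the chloride channel CFTR. Members were all probe sets that the platform's annotation gives to exactly 1 of these symbols, and probe sets of 1 gene were kept apart. All 9 were measured, of 9155 genes named on the array in this way, by 14 of the 24016 probe sets tested: 3 for AQP1, and 11 for the other 8 genes. Probe sets of 1 gene are numbered in brackets from the brightest on. Shunt lambs (n = 8) had received, as fetuses, a vascular graft of 8.0 mm and 2 mm length that joined the ascending aorta to the main pulmonary artery, which sends aortic blood into the lung and serves as a model of heart defects that raise blood flow through the lung. Control lambs (n = 8) had a sham operation. Surgery in both groups took place 9 ± 6 days before term, delivery was spontaneous, and peripheral lung was taken at an age of 3 days. The labels give no sex, breed or genotype and describe no lamb individually, so each array was taken as 1 lamb, and p-values measure the spread between arrays.

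Before birth the lung epithelium secretes fluid, driven by chloride that leaves through channels such as CFTR. Around birth the epithelium turns to absorption: sodium enters the cells through the epithelial sodium channel (ENaC), built of alpha, beta and gamma subunits (SCNN1A, SCNN1B and SCNN1G), and is pumped out by the Na,K-ATPase, of which ATP1B1 encodes a beta subunit. Water follows through aquaporins. In the mammalian lung AQP1 is known from the endothelium of small vessels and from red cells, AQP5 from alveolar type 1 cells, and AQP3 and AQP4 mainly from airway epithelium.

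Sheep RNA was hybridized to bovine probe sets, and the values are log2 levels made with RMA, a method that subtracts background and puts all arrays on 1 scale. Without detection calls it is not known which levels lie above background, and levels of different probe sets are not comparable. The median difference between shunt and control lambs over all 24016 probe sets was -0.014 on the log2 scale, and array medians were 7.131 ± 0.009 in shunt and 7.154 ± 0.016 in control lambs (SD, n = 8 each, two-sided exact permutation p = 0.000311). Mean correlations of an array with the others lay between 0.991 and 0.993 in shunt and between 0.983 and 0.993 in control lambs, where control replicate 2 was lowest. The gap between 3' and 5' probe sets of 3 housekeeping genes, which widens as RNA breaks down, was 1.10 ± 0.11 in shunt and 1.07 ± 0.23 in control lambs (exact permutation p = 0.73). Some markers of lung were bright: the surfactant gene SFTPB was at percentile 99 of all probe set means, and the endothelial PECAM1 at percentile 99.1, each with its brighter probe set. Others were dimmer, such as the type 2 cell gene SLC34A2 at percentile 51.6 and the endothelial VWF at 14.1 with its brighter probe set. These percentiles are no test of the tissue label.

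None of the 14 probe sets passed the threshold over all probe sets, an adjusted p under 0.05 (limma's moderated test with Benjamini-Hochberg adjustment), where 0.0708% of all probe sets passed, 0.0666% as higher and 0.00416% as lower in shunt. At an unadjusted p under 0.05 there were 3 of 14 (21.4%), namely AQP1 (1) and AQP1 (2) higher and AQP5 lower, against 13.7% of all probe sets, 6.42% higher and 7.32% lower. Outside AQP1, 10 of 11 probe sets had a lower mean in shunt lambs, and the exception was a CFTR probe set. Over all probe sets 55.1% had a lower mean and 44.9% a higher one. The median difference was 0.33 for the 3 AQP1 probe sets and -0.13 for the other 11. These counts describe a list chosen with earlier results of these data known, and its members are not independent of each other. In whole lung, fewer cells of a type and less RNA per cell cannot be told apart.

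**Figure D1:**
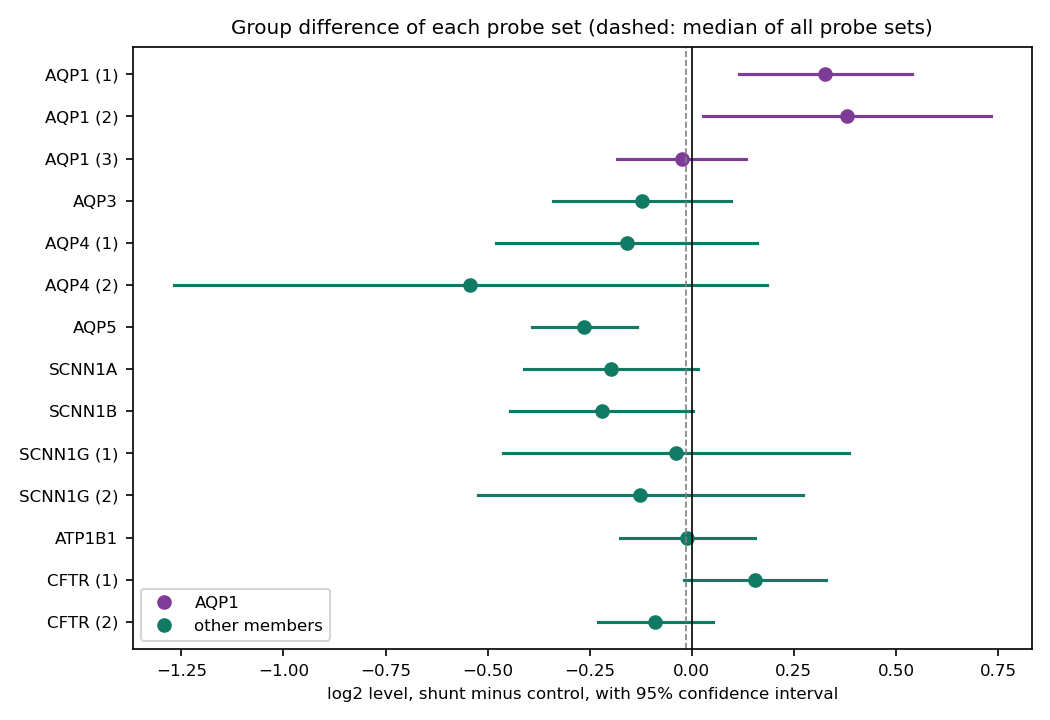
Difference of log2 level, shunt minus control, for each of the 14 probe sets (points) with its 95% confidence interval from limma (lines); the dashed line is the median of all probe sets, and numbers in brackets order the probe sets of a gene by brightness. AQP1 (1), AQP1 (2) and AQP5 have intervals that leave out 0, and AQP1 (3) lies at -0.03.

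AQP1, the water channel of vascular endothelium, was read by 3 probe sets that did not move alike. The brightest, AQP1 (1), ran from 10.78 through a median of 11.28 to 11.64 in shunt lambs and from 10.85 through 10.95 to 11.18 in control lambs. In 6 of 8 shunt lambs it was above every control, and the remaining shunt replicates 1 and 2, at 11.05 and 10.78, were the lowest of their group. The mean was 11.30 ± 0.28 in shunt and 10.97 ± 0.13 in control lambs (SD, n = 8 each), a difference of 0.33 ± 0.10 (SE), or 125% of the control level with a 95% interval from 1.08-fold to 1.45-fold (limma adjusted p = 0.219, unadjusted p = 0.0044). The spread within the shunt group was 2.23 times that within the control group for AQP1 (1).

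The next probe set, AQP1 (2), ran from 7.10 through 7.70 to 8.49 in shunt lambs and from 6.81 through 7.25 to 7.72 in control lambs. Its groups overlapped, with 4 of 8 shunt lambs above every control and shunt replicate 6 the highest of all. The difference for AQP1 (2) was 0.38 ± 0.17 (adjusted p = 0.339). With the gap between 3' and 5' probe sets as a covariate, added after seeing the data, it was 0.42 ± 0.14 (limma adjusted p = 0.233). Shunt replicate 6 had the narrowest gap of the shunt group, at 0.90. The dimmest, AQP1 (3), gave 7.36 ± 0.15 in shunt and 7.39 ± 0.16 in control lambs, a difference of -0.03 with a 95% interval from -0.18 to 0.13. That interval does not reach the differences read by AQP1 (1) and AQP1 (2), though all 3 intervals overlap. Lamb by lamb, as deviations from the group mean over 16 lambs, AQP1 (1) and AQP1 (2) ran together with Pearson r = 0.48 (Spearman rho 0.37), and AQP1 (3) had r = 0.14 with AQP1 (1) and r = -0.10 with AQP1 (2). These are descriptions of probe sets read on the same arrays, with no test.

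**Figure D2:**
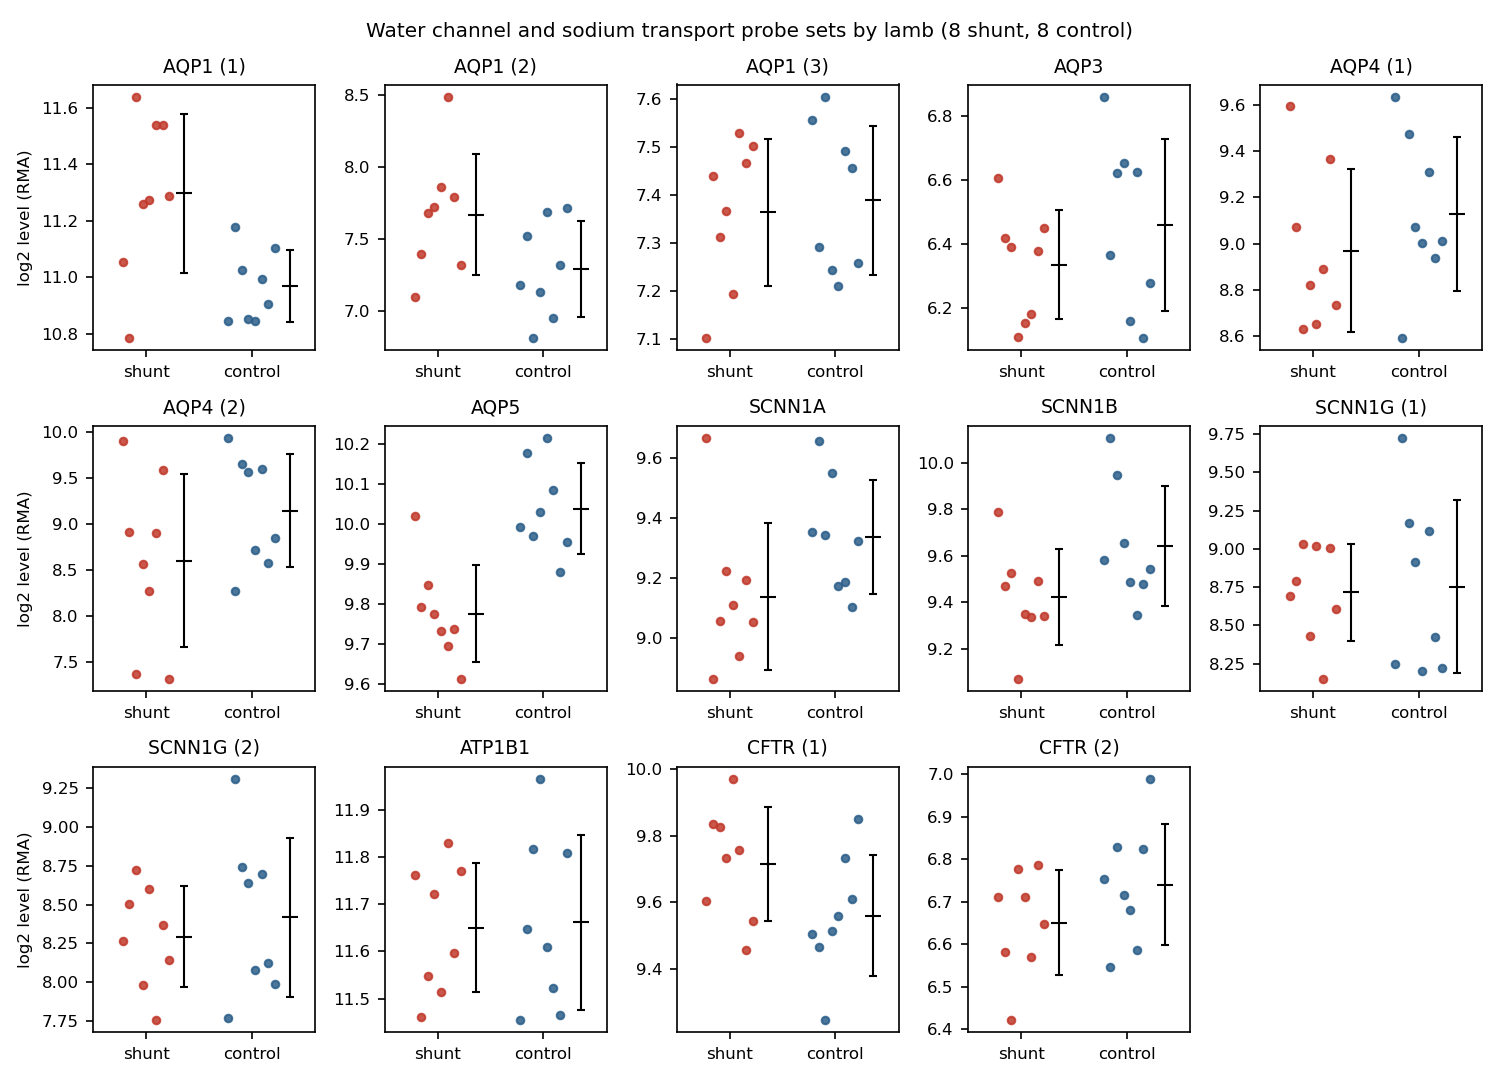
Log2 level of each probe set in each lamb (points, 8 shunt left and 8 control right of each panel), with the group mean and SD beside the points; each panel has its own axis, which does not start at 0. For AQP1 (1), 6 shunt lambs lie above the highest control at 11.18, and for AQP5 7 shunt lambs lie below the lowest control at 9.88.

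AQP5, the water channel on the apical face of alveolar type 1 cells, had the smallest p of the 14 probe sets. It ran from 9.61 through 9.76 to 10.02 in shunt lambs and from 9.88 through 10.01 to 10.22 in control lambs. All 8 shunt lambs were below the control mean and 7 of 8 were below every control, with shunt replicate 1, at 10.02, inside the control range. The mean was 9.78 ± 0.12 in shunt and 10.04 ± 0.12 in control lambs, a difference of -0.26 ± 0.06, or 0.833-fold, and AQP5 ranked 88 among 24016 by p (unadjusted p = 0.000437, adjusted p = 0.115). Without shunt replicate 1 the difference for AQP5 was -0.30 and passed (adjusted p = 0.0421). In that fit 0.0916% of all probe sets passed as lower and 0.221% as higher, against 0.00416% and 0.0666% with all 16 arrays. Across the other fits with 1 array left out, the adjusted p for AQP5 stayed above the threshold, at up to 0.249.

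AQP3 and AQP4, aquaporins of the basolateral face of epithelial cells, had lower means in shunt lambs that lay within the spread of the groups. AQP3 was 6.34 ± 0.17 in shunt and 6.46 ± 0.27 in control lambs, with 7 of 8 shunt lambs below the control mean (difference -0.12 ± 0.10, adjusted p = 0.604). The AQP3 probe set was dim, at percentile 35.3 of all probe set means. The brighter AQP4 probe set, AQP4 (1), gave 8.97 ± 0.35 in shunt and 9.13 ± 0.33 in control lambs (difference -0.16 ± 0.15, adjusted p = 0.653).

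The dimmer one, AQP4 (2), had the widest spread of the members, from 7.31 through 8.73 to 9.91 in shunt lambs and from 8.27 through 9.21 to 9.94 in control lambs. Shunt replicates 3 and 8, at 7.37 and 7.31, were below every control, and shunt replicate 1 stood at the top of its group. The difference for AQP4 (2) was -0.54 ± 0.35, with a 95% interval from -1.27 to 0.18 (adjusted p = 0.486) or from 0.415-fold to 1.14-fold. Both AQP4 probe sets ordered the lambs alike (r = 0.89, rho 0.95 over 16 lambs).

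The alpha subunit of ENaC, SCNN1A, without which the channel does not reach the cell surface in numbers, ran from 8.86 through 9.08 to 9.67 in shunt lambs and from 9.10 through 9.33 to 9.66 in control lambs. In 4 of 8 shunt lambs SCNN1A was below every control, while shunt replicate 1, at 9.67, was above every control. The difference was -0.20 ± 0.10 (adjusted p = 0.389), with 7 of 8 shunt lambs below the control mean. The beta subunit SCNN1B ran from 9.07 through 9.41 to 9.79 in shunt lambs and from 9.34 through 9.56 to 10.11 in control lambs, a difference of -0.22 ± 0.11 (adjusted p = 0.367) with 7 of 8 below the control mean. Shunt replicate 1 was again the exception, at 9.79.

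The gamma subunit SCNN1G showed no difference larger than its spread. The brighter probe set, SCNN1G (1), was 8.72 ± 0.32 in shunt and 8.75 ± 0.57 in control lambs (difference -0.04 ± 0.20, adjusted p = 0.948), and the dimmer, SCNN1G (2), was 8.29 ± 0.33 in shunt and 8.42 ± 0.51 in control lambs (difference -0.13 ± 0.19, adjusted p = 0.786). Both followed each other closely from lamb to lamb (r = 0.97, rho 0.95). Control replicate 2 had the highest value of all 16 lambs on both, 9.73 and 9.31, and without it the differences were 0.10 for SCNN1G (1) and 0.002 for SCNN1G (2). Their 95% intervals, from -0.46 to 0.38 and from -0.52 to 0.27, hold the differences seen for SCNN1A and SCNN1B, so the subunits are not shown to differ.

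ATP1B1, the beta 1 subunit that carries the sodium pump to the basolateral membrane, was 11.65 ± 0.14 in shunt and 11.66 ± 0.19 in control lambs. Its difference of -0.01 ± 0.08 had a 95% interval from -0.18 to 0.15 (adjusted p = 0.963), with 4 of 8 shunt lambs on each side of the control mean. For CFTR, the chloride channel of secretion, the probe sets pointed in opposite directions. The brighter, CFTR (1), was 9.72 ± 0.17 in shunt and 9.56 ± 0.18 in control lambs (difference 0.15 ± 0.08, adjusted p = 0.412), and 6 of 8 shunt lambs were above the control mean. The dimmer, CFTR (2), was 6.65 ± 0.12 in shunt and 6.74 ± 0.14 in control lambs (difference -0.09 ± 0.07, adjusted p = 0.557). The CFTR probe sets did not run together over the lambs (r = -0.06, rho -0.18).

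**Figure D3:**
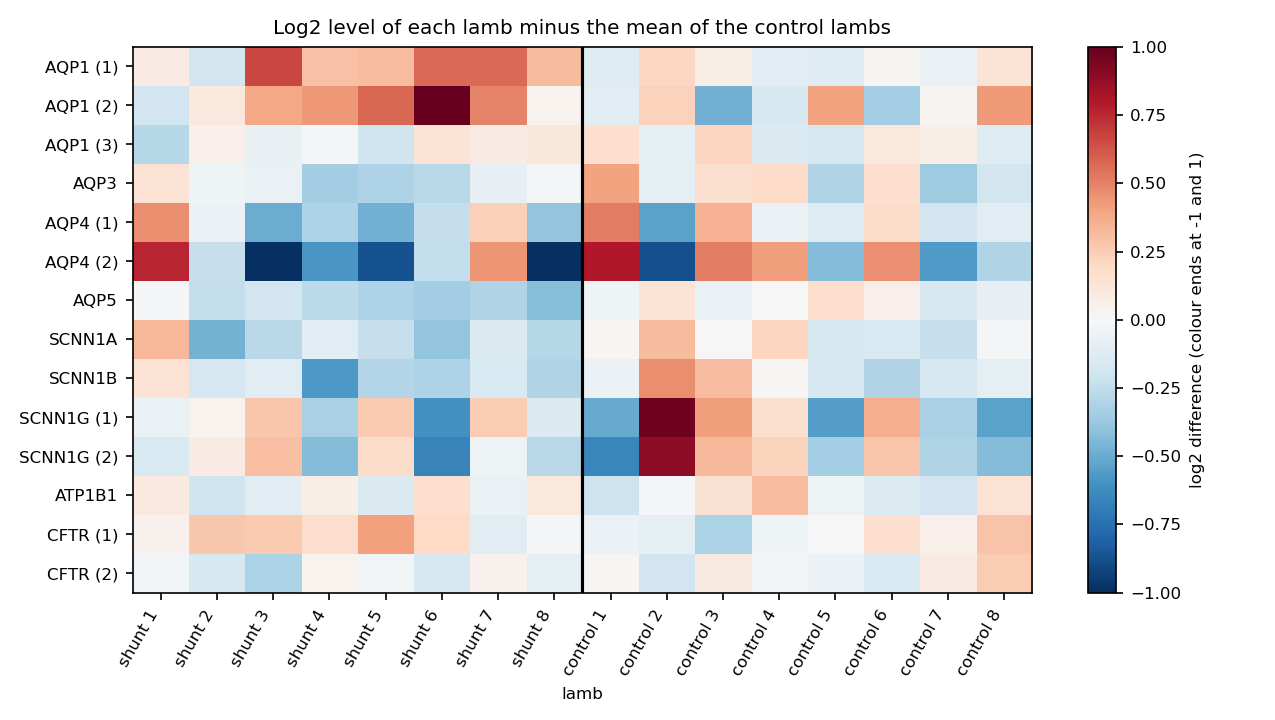
Log2 level of each lamb minus the mean of the 8 control lambs, with probe sets in rows, shunt lambs left of the black line and control lambs right of it; red is above and blue below the control mean, and colours end at -1 and 1. Shunt 1 is red in most epithelial rows, unlike the other shunt lambs, and control 2 is the reddest lamb in both SCNN1G rows.

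Single lambs bore on several members at once. Shunt replicate 1 had the highest value of the shunt group on 6 of the 11 probe sets outside AQP1 (AQP3, both of AQP4, AQP5, SCNN1A and SCNN1B) and the lowest on 2 of the 3 AQP1 probe sets. It lay above the control mean on 7 of these 11 probe sets, while the other 7 shunt lambs did so on between 1 and 4. Without shunt replicate 1 the differences were -0.27 for SCNN1A (adjusted p = 0.16), -0.27 for SCNN1B (adjusted p = 0.242), -0.73 for AQP4 (2) (adjusted p = 0.319) and 0.36 for AQP1 (1) (adjusted p = 0.146), none past the threshold. Other lambs drew the differences the other way: AQP4 (2) was at -0.37 without shunt replicate 3 and at -0.36 without shunt replicate 8, and without control replicate 2 SCNN1A was at -0.15 and SCNN1B at -0.155. AQP1 (1) ran from 0.28 without shunt replicate 3 to 0.40 without shunt replicate 2, and AQP1 (2) from 0.26 without shunt replicate 6 to 0.46 without shunt replicate 1. In the control group, control replicate 2 was the highest on 4 of the 11 and the lowest on 3.

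Among the brightest probe sets of the 9 genes, 36 relations were computed over the 16 lambs as deviations from the group means, with lambs permuted within groups. AQP3 and AQP4 had the highest, with r = 0.66 (permutation p = 0.00748, adjusted p = 0.269) and rho = 0.62 (p = 0.0126, adjusted p = 0.43), and r = 0.58 without the 2 lambs farthest from the median of AQP3. SCNN1A and SCNN1B had r = 0.61 (permutation p = 0.0158, adjusted p = 0.284) and rho = 0.48 (p = 0.0677, adjusted p = 0.43). Without shunt replicate 1 and control replicate 2 this r was 0.14, so the relation rested on these lambs. SCNN1B and SCNN1G had r = 0.59 (permutation p = 0.0264, adjusted p = 0.317) and rho = 0.56 (p = 0.0366, adjusted p = 0.43), and r = 0.46 without the same lambs. No adjusted p among the 36 was under 0.05, while 4 of them were under it before adjustment by Pearson's r and 2 by Spearman's rho.

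Whether AQP1 and the epithelial members differed in their group difference was tested on the difference of their log2 levels within each lamb. The 3 AQP1 probe sets were each set against the brightest probe set of the other 8 genes. Levels are those of whole lung, so the test does not tell a response of cells from a change in their number. ATP1B1 is counted here with the epithelial members, although many cell types use it. AQP1 (1) minus AQP5 ran from 0.99 through 1.61 to 1.84 in shunt lambs and from 0.63 through 0.95 to 1.15 in control lambs. All 8 shunt lambs were above the control mean and 6 were above every control, with shunt replicates 1 and 2, at 1.03 and 0.99, inside the control range. The mean difference was 0.59 ± 0.13 (SE, two-sided exact permutation over 12870 divisions of the lambs, p = 0.00202, adjusted p = 0.0401 over the 24 pairs).

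AQP1 (1) also stood apart from the alpha and beta subunits of ENaC. AQP1 (1) minus SCNN1A ran from 1.39 through 2.20 to 2.60 in shunt lambs and from 1.30 through 1.68 to 1.81 in control lambs, with 7 of 8 shunt lambs above every control (difference 0.53 ± 0.15, exact permutation p = 0.00513, adjusted p = 0.0401). AQP1 (1) minus SCNN1B ran from 1.27 through 2.00 to 2.20 in shunt lambs and from 1.07 through 1.31 to 1.65 in control lambs (difference 0.55 ± 0.15, exact permutation p = 0.00513, adjusted p = 0.0401). AQP1 (2) minus AQP5 also passed, with a difference of 0.64 ± 0.21 (exact permutation p = 0.00668, adjusted p = 0.0401). In these 4 pairs AQP1 was higher in shunt lambs relative to the epithelial member, whichever of both probe sets was the brighter. The pairs are not independent, since most share the AQP1 (1) values and AQP5 enters with both AQP1 probe sets. The adjustment gave all 4 the same adjusted p, although not all unadjusted p were equal. It covers only the pairs computed here. How often AQP1 minus a gene outside the members would pass was not computed, so the 4 calls have no background share beside them. Epithelial marker lists were also mostly lower and endothelial markers mostly higher in shunt lambs, as given below.

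The other 20 pairs did not pass. For AQP1 (1) the differences were 0.45 ± 0.17 against AQP3 (exact permutation adjusted p = 0.0895), 0.49 ± 0.23 against AQP4 (adjusted p = 0.151), 0.37 ± 0.23 against SCNN1G (adjusted p = 0.233), 0.34 ± 0.12 against ATP1B1 (adjusted p = 0.0716) and 0.17 ± 0.15 against CFTR (adjusted p = 0.323). AQP1 (3) had 0 of 8 pairs past the threshold, from -0.18 against CFTR to 0.24 against AQP5, and 0 of 8 with an unadjusted p under 0.05. As values with no test, AQP1 (1) minus the mean of the 8 other genes was 2.08 ± 0.33 in shunt and 1.65 ± 0.14 in control lambs. Shunt replicates 1 and 2, at 1.59 and 1.57, were the lowest 2 of their group there too.

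The 4 calls lay near the threshold, each at an adjusted p of 0.0401 (exact permutation). Most fits with 1 array left out lost them, while the differences of these pairs stayed between 0.463 and 0.759. With 1 array left out, each of the 4 pairs passed in 4 of 16 fits, with unadjusted exact p from 0.000155 to 0.0145 in all 16. AQP1 (1) had 6 pairs past the threshold without shunt replicate 1, 5 without shunt replicate 2, 3 without control replicate 5 or 8, and 0 without any other single lamb.

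**Figure D4:**
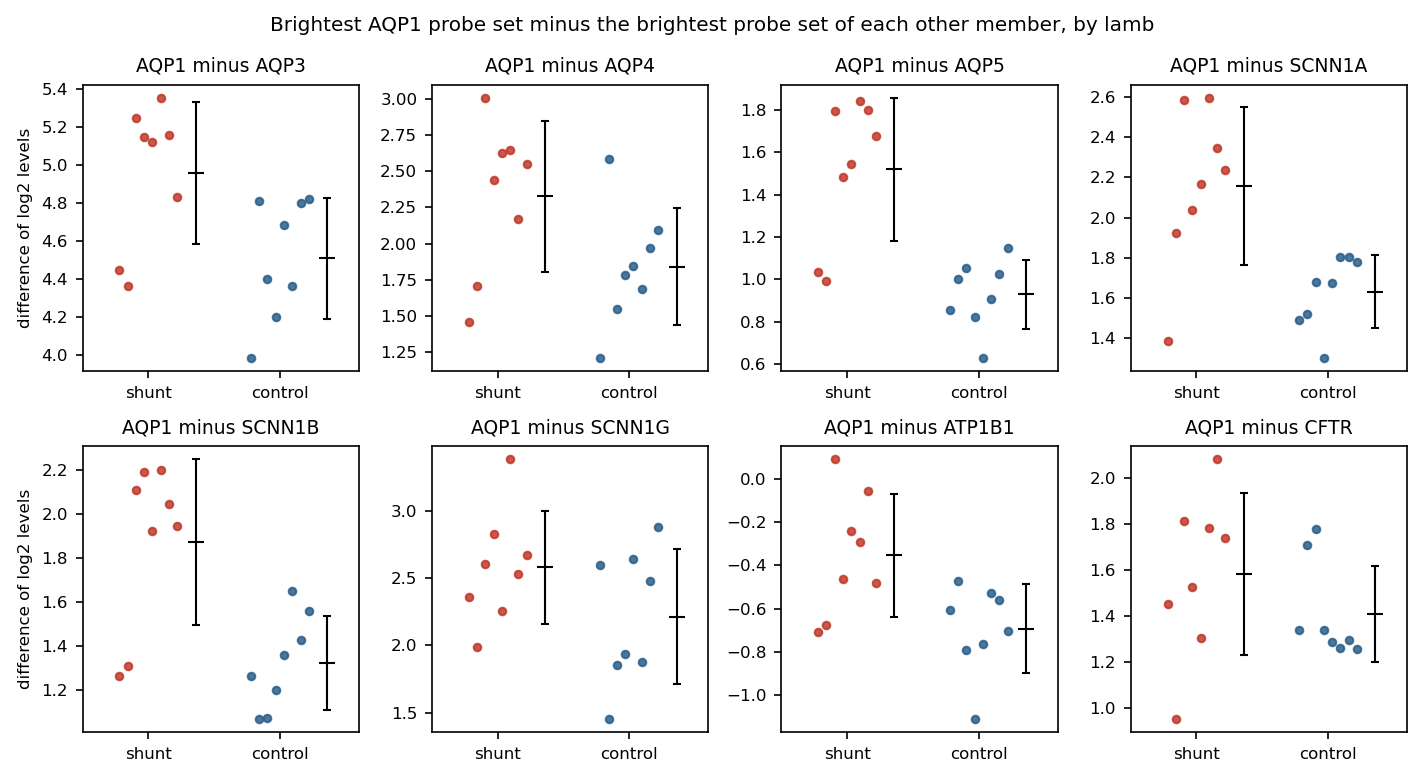
Log2 level of AQP1 (1) minus that of the brightest probe set of each other member in the same lamb (points, 8 shunt left and 8 control right), with the group mean and SD beside them; the height of a panel's axis has no meaning across genes. In the panels for AQP5 and SCNN1B, 6 shunt lambs lie above every control, and shunt replicates 1 and 2 lie among the controls.

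Markers of the cell types that could carry the members were read on the same arrays. Endothelial markers had 16 of 23 probe sets higher and 7 lower in shunt (median difference 0.08; 44.9% of all probe sets were higher), with a mean level per lamb from 9.22 to 9.46 in shunt and from 9.10 to 9.29 in control lambs. PECAM1, an adhesion molecule of endothelial junctions, rose by 0.35 on 1 probe set (adjusted p = 0.0384) and was 0.28 higher on the other (adjusted p = 0.0609), and ENG, a TGF-beta co-receptor, was 0.32 ± 0.09 higher (adjusted p = 0.2). Leaving out single arrays, the PECAM1 probe set that passed did so in 6 of 16 cases, those without shunt replicate 1 or 7 or control replicate 2, 4, 6 or 8, with adjusted p from 0.0179 to 0.113 and differences from 0.32 to 0.38. Not all endothelial markers were raised. VWF on its brighter probe set and CLDN5 were each at -0.11, and CDH5 was at 0.02 on its brightest. These 3 genes were named after their values were seen. Red cell markers, which matter because red cells carry AQP1, had 5 of 11 probe sets higher (median -0.02), with HBB at 0.68 ± 0.35 on its brightest probe set (adjusted p = 0.396) and from -0.31 to 0.10 on the other 3, RHAG at -0.12 and AHSP at -0.18. Their mean level ran from 6.84 to 7.19 in shunt and from 6.54 to 7.57 in control lambs. The part of these cell types in the AQP1 values was not tested.

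Of the marker lists for epithelium, general epithelial genes had 10 of 10 probe sets lower in shunt (median -0.18), alveolar type 1 genes 9 of 10 (median -0.11) and alveolar type 2 genes 11 of 11 (median -0.15), against 55.1% of all probe sets. The mean level of the general epithelial genes ran from 9.15 to 9.65 in shunt and from 9.48 to 9.88 in control lambs, that of the type 1 genes from 10.16 to 10.37 in shunt and from 10.16 to 10.61 in control lambs, and that of the type 2 genes from 10.10 to 10.55 in shunt and from 10.30 to 10.62 in control lambs. None passed over all probe sets (limma), while 5, 3 and 4 were lower at an unadjusted p under 0.05, as were 7.32% of all probe sets. On the probe set of smallest p for each, the keratin KRT19 was at -0.44 ± 0.13, the transcription factor ELF3 at -0.15 ± 0.05, the cadherin CDH1 at -0.19 ± 0.07, the type 1 genes GPRC5A, CLIC5 and PDPN at -0.345, -0.34 and -0.19, and the type 2 genes SFTPB, SLC34A2 and SFTPA1 at -0.23, -0.34 and -0.22. Differences were smaller on the other probe sets of these genes. They were -0.106 for CDH1, -0.048 for SFTPB, and -0.105 and -0.028 for SFTPA1, the last on its brightest probe set. The part of epithelial cell content in the AQP5, SCNN1A and SCNN1B values was not tested.

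Airway markers had 6 of 8 probe sets lower (median -0.13), with TFF3 at -0.63 ± 0.23, BPIFA1 at -0.26 and KRT14 at -0.24, and a mean level from 7.39 to 7.98 in shunt and from 7.55 to 8.30 in control lambs. Smooth muscle markers had 7 of 10 higher (median 0.10), with TPM2 at 0.37 (and -0.05 on a dimmer probe set), MYH11 at 0.33 and TAGLN at 0.39. CNN1, named after its value was seen, was at -0.18. Macrophage markers had 3 of 7 higher (median -0.05), with MSR1 at 0.50, -0.14 and 0.11 on its 3 probe sets, and neutrophil markers had 0 of 9 higher (median -0.13), with ELANE at -0.24, MPO at -0.17 and CAMP at -0.12. No probe set of these 4 lists passed (limma), and at an unadjusted p under 0.05 there were 2 lower among airway, 4 higher among smooth muscle, 1 higher and 1 lower among macrophage and 3 lower among neutrophil probe sets. Over all probe sets 44.9% were higher and 55.1% lower, and 6.42% and 7.32% at that p.

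Between AQP1, AQP5, SCNN1A and SCNN1B and the mean levels of 5 marker lists, 20 relations were computed over the lambs in the same way. AQP5 ran with the type 1 markers, which do not hold AQP5, at r = 0.71 (permutation p = 0.00137, adjusted p = 0.0274) and rho = 0.57 (p = 0.0287, adjusted p = 0.438), and r = 0.53 without shunt replicate 1 and control replicate 5, the lambs farthest from the AQP5 median. SCNN1A and the type 2 markers had r = 0.62 (permutation p = 0.0204, adjusted p = 0.204) and rho = 0.46 (p = 0.0875, adjusted p = 0.438), and r = 0.55 without shunt replicate 1 and control replicate 2. AQP1 (1) had r = 0.22 with the endothelial markers (permutation p = 0.426, adjusted p = 0.656; rho 0.09, p = 0.758, adjusted p = 0.987), which became -0.25 without shunt replicates 2 and 3. With red cell markers AQP1 (1) had r = 0.37 (permutation p = 0.0415, adjusted p = 0.277) and rho = 0.46 (p = 0.0677, adjusted p = 0.438), and r = 0.30 without the same lambs.

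The genes whose pattern was most like AQP1 (1), by Pearson's r of deviations from the group mean over 16 lambs among all probe sets with 1 symbol, were ZMYM1 (r = 0.81), the growth factor FGF2 (0.80), the glycine receptor gene GLRA1 (0.75), the collagen-modifying enzyme PLOD1 (0.75) and the chromatin gene EED (0.75). Being the highest of 13292 probe sets, they are given with no p. Without shunt replicates 1 and 2, the lowest shunt lambs on AQP1 (1), the r was 0.47 for FGF2 and between 0.66 and 0.79 for the others. Without shunt replicates 2 and 3, the lambs farthest from the AQP1 (1) median, it lay between 0.64 for FGF2 and 0.81 for EED. ZMYM1 and GLRA1 were dim, at means of 6.06 and 5.76. Most like AQP5 were HYI (r = 0.88), the orexin receptor HCRTR1 (0.86), SMIM1 (0.84), PLEKHB1 (0.84) and the activin-binding protein FST (0.83). HCRTR1 was dim, at a mean of 5.25. Without shunt replicate 1 and control replicate 5, the lambs farthest from the AQP5 median, the r of these genes lay between 0.64 and 0.79. Among these, HYI and PLEKHB1 had lower means in shunt lambs that did not pass, with differences of -0.33 ± 0.09 (limma adjusted p = 0.167) and -0.35 ± 0.10 (adjusted p = 0.2), while FST was at -0.004.

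Other genes of the pathway were listed as 63 symbols, of which 36 were measured by 51 probe sets and 27 were not analysed here, among them the pump's alpha subunits. Of the 51 probe sets, 11 were higher and 40 lower in shunt (78.4% lower, against 55.1% of all), with a median of -0.07 against -0.014. None passed over all probe sets (limma), and at an unadjusted p under 0.05 there were 4 higher and 7 lower, where 6.42% of all probe sets were higher and 7.32% lower. The mean level of the 36 genes per lamb ran from 8.04 to 8.20 in shunt and from 8.15 to 8.20 in control lambs.

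Among the pump's subunits and their FXYD partners (6 genes, 8 probe sets, 2 higher and 6 lower), the beta 3 subunit ATP1B3 stood nearest to the threshold. It was 12.61 ± 0.15 in shunt and 12.27 ± 0.15 in control lambs, a difference of 0.34 ± 0.07 with 8 of 8 shunt lambs above the control mean (adjusted p = 0.0917). The dimmer ATP1B3 probe set gave 0.19 ± 0.08, again with 8 of 8 (adjusted p = 0.307). ATP1B2, the beta 2 subunit, was at -0.16 ± 0.08 (adjusted p = 0.389), and whether the beta subunits differed from each other was not tested. FXYD1, FXYD2, FXYD5 and FXYD6, small proteins that tune the pump, lay between -0.06 and -0.03.

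Genes that control ENaC had 5 of 14 probe sets higher and 9 lower (median -0.16). Prostasin, PRSS8, a membrane protease that activates the channel by cleavage, was at -0.21 ± 0.09 with 7 of 8 shunt lambs below the control mean (adjusted p = 0.31). SPINT2 and SPINT1, which inhibit such proteases, were at -0.25 ± 0.08 (adjusted p = 0.227) and -0.17 ± 0.05 (adjusted p = 0.225), each below the control mean in all 8 shunt lambs, and a brighter SPINT1 probe set was at -0.17 ± 0.08. The kinase PRKCZ was at -0.25 ± 0.12 (adjusted p = 0.348). NEDD4L, the ubiquitin ligase that removes ENaC from the membrane, was at -0.21 ± 0.11 (adjusted p = 0.381), and SGK1, the kinase that opposes it, at 0.02, 0.04 and 0.12 on 3 probe sets. These last genes were named after their values were seen, for their role.

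The glucocorticoid receptor NR3C1, through which steroids raise ENaC and the pump around birth, was 10.66 ± 0.19 in shunt and 10.40 ± 0.15 in control lambs. This difference of 0.26 ± 0.08 had 8 of 8 shunt lambs above the control mean (adjusted p = 0.223), and a dim NR3C1 probe set was at -0.05 ± 0.06. The hormone and adrenergic genes together had 3 of 10 probe sets higher. Other ion transporters had 1 of 16 higher and 15 lower (median -0.10), led by the carbonic anhydrase CA2 at -0.27 ± 0.10 (adjusted p = 0.26), the chloride channel CLCN2 at -0.24 ± 0.09 (adjusted p = 0.278) and the potassium channel KCNQ1 at -0.18 ± 0.08 (adjusted p = 0.338, and -0.03 on a second probe set). The remaining aquaporins AQP7, AQP11 and MIP were at -0.04, -0.02 and -0.11.

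**Figure D5:**
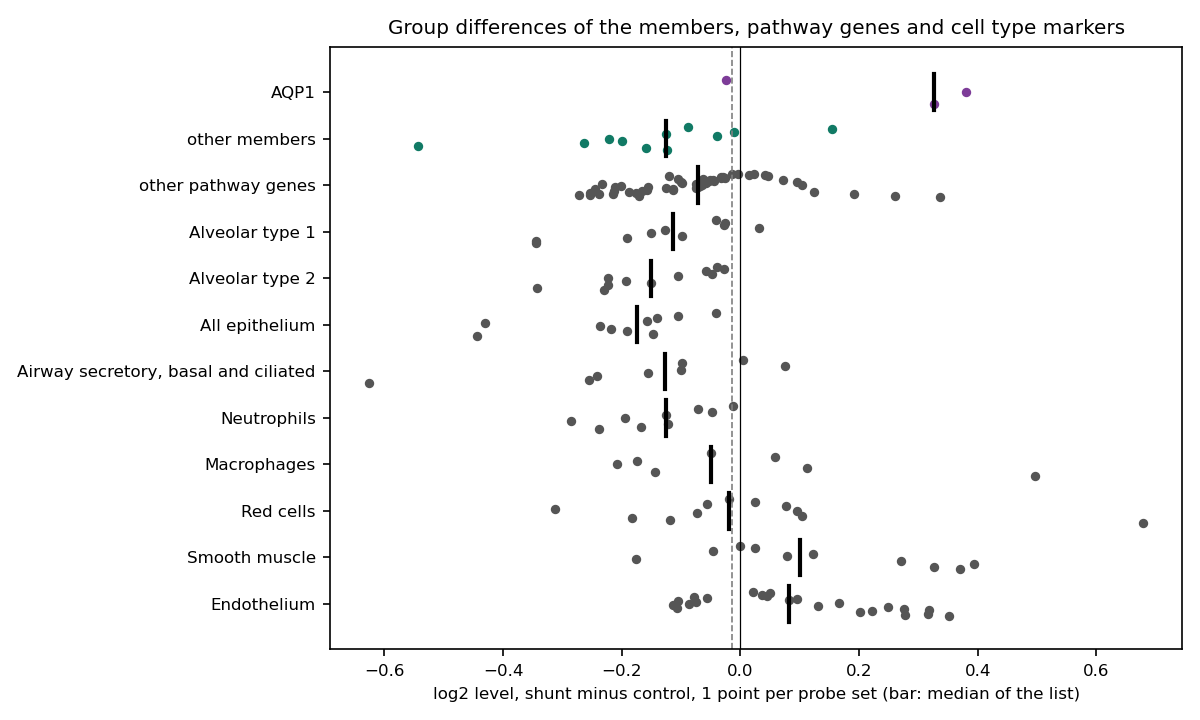
Difference of log2 level, shunt minus control, of each probe set (points) for AQP1, the other members, the other pathway genes and the cell type markers, with the median of each list as a black bar and the median of all probe sets as a dashed line. The medians of the epithelial lists lie between -0.18 and -0.11, and those of endothelial and smooth muscle markers at 0.08 and 0.10.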

How the data were processed

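Values for each of the 16 arrays were deposited on the log2 scale. The submitters' processing notes name RMA as the authors' method; no version is given in the sources used here. Of 24128 probe sets, 112 manufacturer controls were left out. The platform annotation gave 1 symbol to 13292 of the others, several to 86 and none to 10638, and all 9 member symbols were found in a table of sheep genes. The number of arrays limits the precision, and no batch was known.

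Groups were compared with limma 3.58.1 (R 4.3.3; lmFit, eBayes, no covariate, two-sided) over all 24016 probe sets, with Benjamini-Hochberg adjustment at 0.05; errors are the fit's. Differences within a lamb were tested by exact permutation, and relations over lambs with 100000 permutations within groups. The fits were tested on simulated data. Members, lists and rules were chosen with earlier results of these data known. The rule named all members, the 10 pathway probe sets and 3 marker probe sets per list of smallest p, and the 5 genes most like AQP1 and AQP5. Alternatives were other normalizations, a filter that removed the dimmest 30%, array weights, a trended prior, a replicate block, other probe set rules, a threshold of 0.10 and each array left out; the 3' minus 5' difference as a covariate was added after seeing the data. Plots used matplotlib 3.10.9 in Python 3.11.15.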

Additional observations from a re-analysis of the deposited data

Results flagged for a closer look

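In the shunt group, SCNN1A stood far from the rest in 1 lamb: shunt replicate 1 read 9.668, against 8.862 to 9.223 in the other 7 shunt lambs, a gap of 0.552 of the group's range. Of 30 sets of values looked at in this way (14 probe sets and AQP1 (1) minus the mean of the other 8 genes, in both groups) this was the only one, where chance gives about 1.5.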

How the results depend on the processing

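Under 27 alternatives the count of members past the threshold was 0 as higher, and it was 0 as lower except for 1, AQP5, without shunt replicate 1 (0 to 1 with single arrays left out). AQP1 (1), AQP1 (2), AQP3, both AQP4, AQP5, SCNN1A, SCNN1B and both CFTR probe sets kept their sign under each alternative run for them; AQP1 (2), AQP4 (2) and CFTR (2) have no value of their own under the 2 rules that give 1 value per gene. The sign changed for small differences: AQP1 (3) was 0.002 after cyclic loess (-0.051 to 0.013 with an array left out), SCNN1G (1) 0.03 with array weights (-0.117 to 0.10), and ATP1B1 0.012 with arrays centred on their median (-0.041 to 0.033), while SCNN1G (2) ran from -0.218 to 0.002 with an array left out. Over all probe sets 16 passed as higher and 1 as lower in the main fit. Without shunt replicate 1, where AQP5 passed, 53 passed as higher and 22 as lower. The counts were 36 and 9 with array weights and 0 and 0 with the replicate block. They were 44 and 11 at a threshold of 0.10, and 21 and 3 without the dimmest 30%. The threshold of 0.10 is a looser cut on the main fit, which cannot call fewer. Why the other counts differ was not tested. Replicate numbers are shared by the groups but pair no lambs that the labels name: same-numbered arrays correlated from -0.259 to 0.222 in their deviations, 2 of 8 over 0.1, and no array was closest to its own number (0 of 16). With the replicate block, 0 pairs of AQP1 (1) and 0 of AQP1 (2) passed, where 3 and 1 passed without it. Only 8 differences enter that test, so its p-values cannot become small enough for a single pair to pass after adjustment. The loss of the calls there therefore decides nothing. With the means of a gene's probe sets, 1 of 8 pairs passed, AQP1 minus AQP5 (0.49, adjusted p = 0.0174), against 3, 1 and 0 for AQP1 (1), (2) and (3). With an array left out, pairs past the threshold ran from 0 to 6 for AQP1 (1), from 0 to 3 for AQP1 (2) and from 0 to 1 for AQP1 (3). AQP1 (3) minus ATP1B1 was 0.045 after quantile normalization again and 0.051 after cyclic loess (-0.078 to 0.04 with an array left out), and AQP1 (3) minus SCNN1G ran from -0.139 to 0.11. Signal over background is unknown for all members.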
